A study of Mus musculus with 10 samples.

Results

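The mRNAs of 9 chemokine receptors that guide lymphocytes into tissues, Cxcr3, Cxcr4, Cxcr5, Cxcr6, Ccr1, Ccr2, Ccr4, Ccr8 and Ccr10, were followed in EM γδ T cells after malaria. They were found by their Entrez gene IDs among the 27179 genes counted, and all 9 had a row. The cells came from the spleens of 5 naïve and 5 P. chabaudi pre-exposed mice, with 1 library per mouse. All mice were female C57BL/6, infected at the age of 6 to 8 weeks or left uninfected. The pre-exposed mice had received 50000 iRBC (infected red blood cells) intravenously. Both groups were given chloroquine and pyrimethamine (10 mg/kg each) on day 14, and then both drugs in the drinking water for 5 days. The naïve mice were therefore drug-treated but never infected. Spleens were taken 12 weeks after the end of treatment. EM γδ T cells were sorted as CD3+ γδTCR+ CD62L- CD44+, a gate for the effector memory phenotype that does not separate γδ T cells by their cytokines.

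Chemokine receptors are G protein-coupled receptors that make cells move up a gradient of chemokine. Each receptor binds a small set of chemokines, and the set of receptors on a T cell helps to set the tissues it can enter. CXCR3 is the receptor of type 1 effector cells and CXCR6 that of liver-resident lymphocytes. CXCR5 leads cells into B cell follicles, CXCR4 into bone marrow, and CCR1 and CCR2 to sites of inflammation. CCR4, CCR8 and CCR10 are known for skin. In γδ T cells, CCR2 is known from IL-17-producing cells and CXCR3 from IFNγ-producing cells.

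All 9 receptor genes passed the filter on low counts and were among the 12655 genes tested. Cxcr5 was the 1 receptor called higher in pre-exposed mice by edgeR's quasi-likelihood test, at an adjusted p under 0.05. None was called lower by edgeR. At an unadjusted p under 0.05, edgeR had 2 of the 9 (Cxcr5 and Ccr2), against 24.3% of all genes tested, and DESeq2 called the same 2 at its adjusted threshold, against 8.38% of genes called higher and 2.84% lower. Voom with TREAT at 1.5-fold called none of the 9 and 0.0158% of all genes. The background of edgeR calls at adjusted p was 6.29% of the genes tested, made up of 5.12% called higher and 1.17% called lower. The 9 log2 fold changes had a median of 0.50 and 5 of them were above 0, against a median of 0.02 over all genes tested. The median of the 9 was 0.19 with the trend with gene length removed, 0.17 in mice 1 and 5 and 0.14 in mice 2 to 4.

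Several properties of the libraries bear on these values. Total counts were 6587199 to 19993444 in naïve and 8747888 to 22542832 in pre-exposed mice. Pre-exposed mouse 5 stood apart, with 24.7% of its counts in its 10 most abundant genes (5.61% to 10.2% in the other 9 libraries) and a TMM scaling factor of 0.680 (0.999 to 1.11 in the others). Pre-exposed mice 2 to 4 have no index pair in their label descriptions, which all the others have, and in these libraries a gene's deviation from its mean had the lowest rank correlations with gene length (-0.536 to -0.239). The correlation was -0.136 in pre-exposed mouse 5, 0.273 in mouse 1 and 0.259 to 0.413 in naïve mice. Mouse 5 was thus not like mouse 1 in this, although their labels are alike. Following the labels, mice 1 and 5 were also set against all naïve mice on their own, and so were mice 2 to 4. These fits had very different backgrounds, with 0.182% of genes called from mice 1 and 5 and 29.8% from mice 2 to 4. The γδ T cell markers were present in every library (Trdc 1141 to 3873 CPM), and their summed CPM overlapped between the groups (exact permutation test, p = 0.635). Markers of monocytes and macrophages summed to 232 to 316 CPM in the naïve and 521 to 2067 CPM in the pre-exposed group (exact permutation test on the sums, p = 0.00794). Of the 11 listed genes 7 were tested, and edgeR called 5 of these higher. Fewer cells of a type and less RNA per cell cannot be told apart in such bulk samples.

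**Figure D1:**
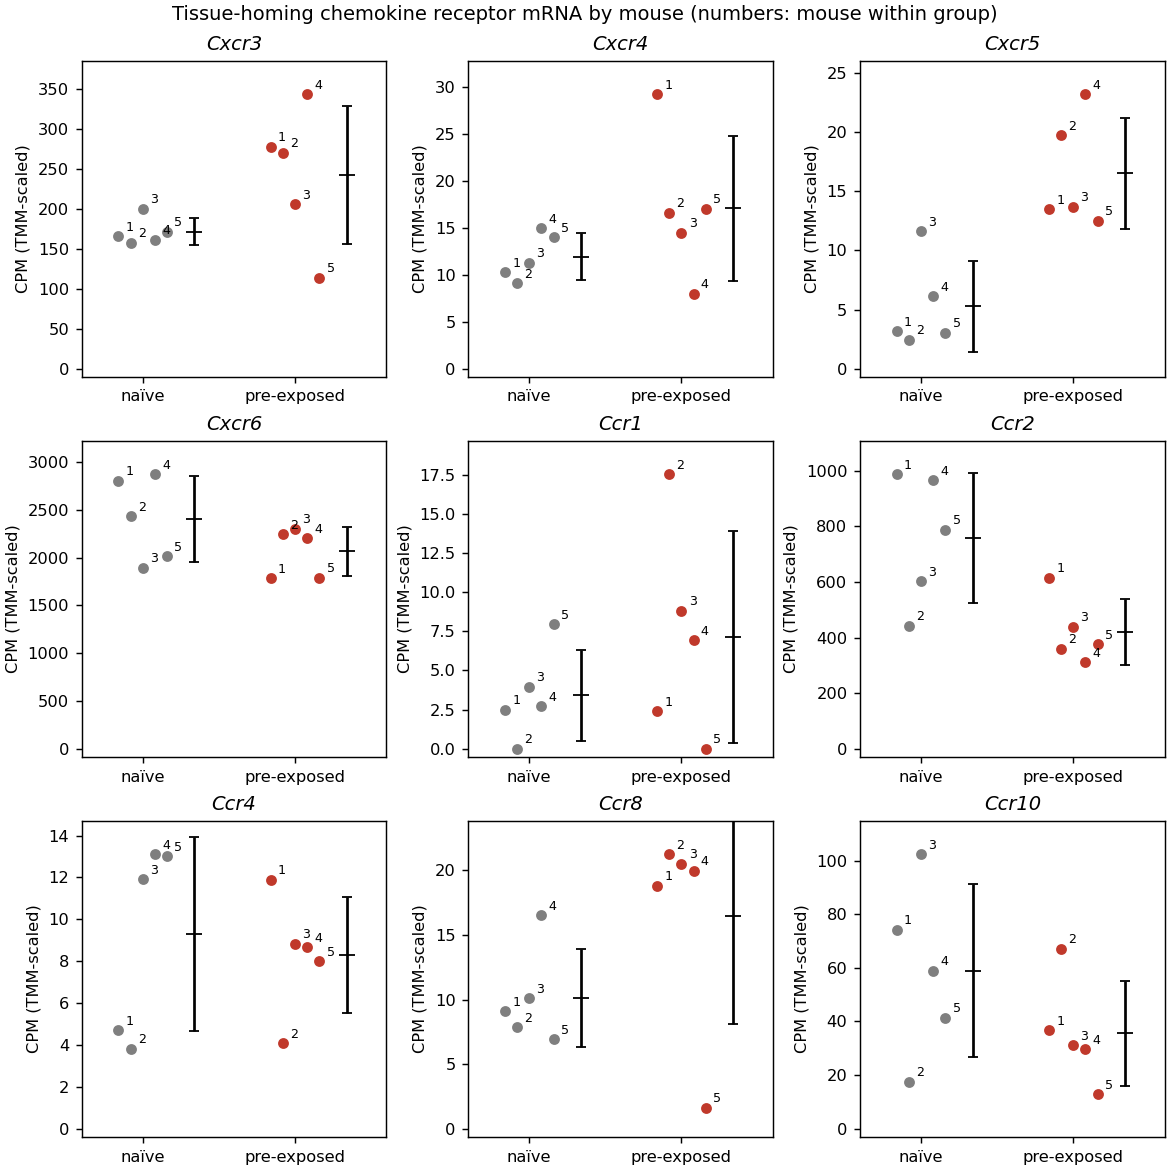
CPM of each receptor (vertical axes from 0, TMM-scaled) in 5 naïve mice (grey) and 5 pre-exposed mice (red), numbered by mouse, with the mean and a bar of ± SD beside the points. With this scaling the Cxcr5 groups do not overlap, and 4 of 5 pre-exposed mice lie under all naïve mice for Ccr2. Mouse 5 lies under the other pre-exposed mice for Cxcr3 and Ccr8.

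Cxcr6, Ccr2 and Cxcr3 made up most of the receptor mRNA. To compare genes, CPM (read counts scaled to the library size by TMM) were divided by exon length. Per kilobase, these 3 genes held 96.5% ± 1.65 of the summed level of the 9 in the naïve and 96.1% ± 1.19 in the pre-exposed group (SD, n = 5 each). The bases upstream of Cxcr6 and Cxcr3 are shown because these genes carry much of the signal. They are the 250 bases before the RefSeq start in GRCm38.p6, read 5′ to 3′ on the gene's own strand. Capitals mark matches on either strand to the T-box core TCACAC, the ROR site AGGTCA or the Runx core TGTGGT, which name families of factors known in T cells.
Cxcr6, chr9:123806227-123806476, plus strand: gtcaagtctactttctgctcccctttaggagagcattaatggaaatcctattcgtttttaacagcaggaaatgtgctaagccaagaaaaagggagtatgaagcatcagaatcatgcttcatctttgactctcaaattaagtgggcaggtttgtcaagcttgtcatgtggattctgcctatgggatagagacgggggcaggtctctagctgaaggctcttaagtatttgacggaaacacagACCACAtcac
Cxcr3, chrX:101734148-101734397, minus strand: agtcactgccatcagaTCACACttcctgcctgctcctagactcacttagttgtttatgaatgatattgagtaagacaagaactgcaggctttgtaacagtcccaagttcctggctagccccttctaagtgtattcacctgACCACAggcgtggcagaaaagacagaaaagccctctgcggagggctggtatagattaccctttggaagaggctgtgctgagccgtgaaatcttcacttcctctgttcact

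Cxcr3 held 1 T-box match, 234 bases upstream, and 1 Runx match, 110 bases upstream, both given at their distal end. Cxcr6 held 1 Runx match at 10 bases. Of the 32817 promoters of the same length, 12.3% held the T-box core, 14.03% the ROR site and 14.04% the Runx core. Of the other receptors, Ccr1 held 1 Runx match, and the windows of Cxcr4 and Ccr8 held none of the 3 motifs. Promoters were matched for 7 of the 9 receptors, and not for Cxcr5 and Ccr10. For Ccr2 and Ccr4 the window matched lies inside the annotated gene, at a start further downstream, and is not described.

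Per kilobase of exon, Cxcr6 was highest in both groups, at 1270 ± 236 CPM per kilobase in the naïve and 1091 ± 136 in the pre-exposed group (SD, n = 5 each). In both groups its range did not overlap that of the next gene. Ccr2 came next in naïve mice, at 211 ± 65.5, followed by Cxcr3 at 106 ± 10.5, and their ranges met. In pre-exposed mice this pair stood in the other order, with Cxcr3 at 150 ± 53.9 and Ccr2 at 117 ± 33.0 CPM per kilobase, and again the ranges overlapped. Ccr10 was the fourth in both groups, at 34.1 ± 18.7 and 20.6 ± 11.5, and its range lay under that of the gene before it. The remaining 5 had naïve means of 1.21 to 8.74 CPM per kilobase, in the falling order Ccr8, Cxcr4, Ccr4, Cxcr5 and Ccr1. Among these neighbours the naïve ranges overlapped for every pair except Cxcr4 and Ccr4. In pre-exposed mice Cxcr5 (6.33 ± 1.80) stood above Ccr4 (2.98 ± 1.00), with no overlap of their ranges, whereas in naïve mice it stood below Ccr4 and overlapped it.

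**Figure D2:**
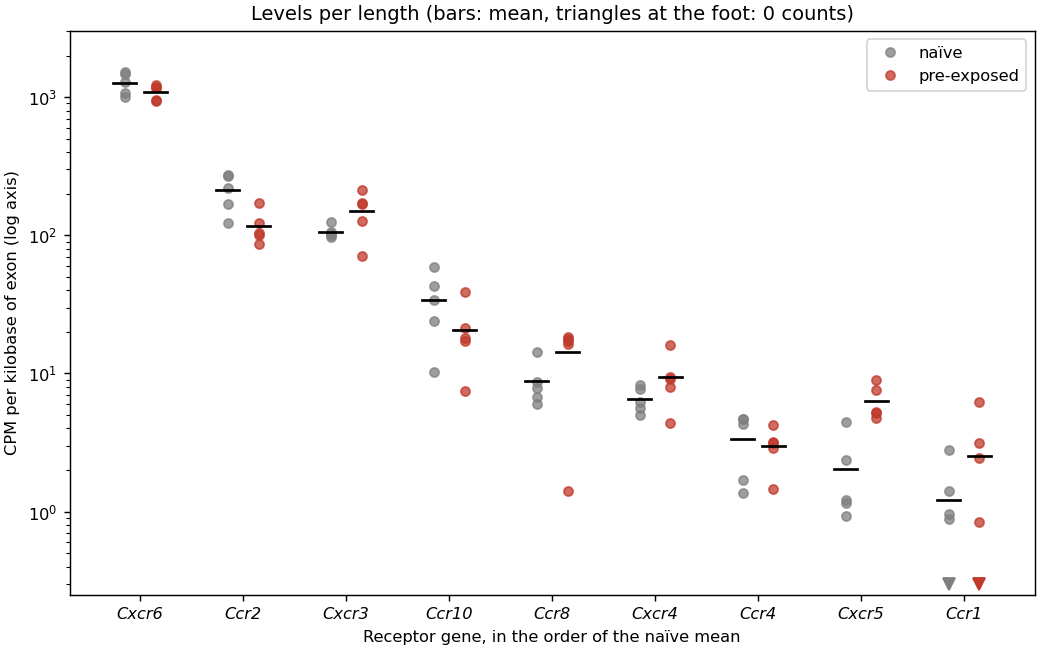
Level of each receptor in CPM per kilobase of exon (log axis) in 5 naïve mice (grey) and 5 pre-exposed mice (red), with a black bar at the mean and a triangle at the foot for a library with 0 counts. Cxcr6 lies above all others in both groups, and the means of Ccr2 and Cxcr3 stand in opposite order in the groups.

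Cxcr5 encodes the receptor for CXCL13, the chemokine of B cell follicles, and is known from B cells and follicular helper T cells. It lies on chromosome 9 at chr9:44511787-44526444 (GRCm38). In naïve mice 1 to 5 it had 3.16, 2.43, 11.6, 6.14 and 3.03 CPM. In pre-exposed mice 1 to 5 it had 13.5, 19.8, 13.7, 23.2 and 12.5 CPM. In these TMM-scaled values every pre-exposed mouse was above every naïve mouse, although pre-exposed mouse 5 (12.5) was close to naïve mouse 3 (11.6). Pre-exposed mouse 5 had the lowest TMM factor, 0.680. Without this scaling it lay below naïve mouse 3, at 69 of 8747888 read pairs against 173 of 15709491. Groups did not overlap for 4.93% of all genes tested, 2.77% in the higher direction. The means were 5.28 ± 3.84 and 16.5 ± 4.71 CPM (SD, n = 5 each), and edgeR gave a log2 fold change of 1.65 (SE 0.43, adjusted p = 0.0382). The exact permutation test gave p = 0.00794, the smallest that 5 against 5 allows. These levels rest on 21 to 406 read pairs per library.

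The Cxcr5 call depended on the libraries included. Its log2 fold change was above 0 in all 26 alternative fits, between 1.29 and 2.20, and 10 of them called it. In mice 2 to 4 it was 1.78 (SE 0.42, adjusted p = 0.00543 from edgeR) and in mice 1 and 5 it was 1.35 (SE 0.59, adjusted p = 0.294 from edgeR). Without pre-exposed mouse 2, 3 or 4 the adjusted p from edgeR was 0.109, 0.0631 and 0.0713, in fits that called 76, 363 and 543 genes. Without naïve mouse 1, 2, 4 or 5 it was 0.111, 0.0893, 0.0856 and 0.0831, in fits that called 53, 110, 151 and 170 genes. The call remained without naïve mouse 3 (log2 fold change 2.20, adjusted p = 0.0226 from edgeR), the naïve mouse with the highest Cxcr5. It also remained without pre-exposed mouse 1 or 5 (adjusted p = 0.0283 and 0.0168 from edgeR). These fits called 335, 1696 and 1870 genes in turn.

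Markers of cells known to express Cxcr5 were set beside it. The B cell list of 8 genes summed to 103 to 167 CPM in naïve and 80.5 to 180 CPM in the pre-exposed group (exact permutation test, p = 0.929), mostly from Cd79b and Cd22. Immunoglobulin genes, which are not in this list, took 0.0845% to 0.737% of all counts in the naïve group and 4.50%, 6.68%, 1.70%, 0.556% and 0.345% in pre-exposed mice 1 to 5. Of its defining genes, Pax5 had 0 counts in all 10 libraries. Cd79a and Ms4a1, which encode part of the B cell receptor and CD20, were called higher by edgeR (log2 fold change 2.88, SE 0.75, adjusted p = 0.0382, and 2.88, SE 0.77, adjusted p = 0.0366). In pre-exposed mice 1 to 5 Cd79a had 21.7, 20.5, 3.90, 2.22 and 1.09 CPM, and Ms4a1 had 6.66, 3.80, 2.07, 1.80 and 0. Cxcr5 was highest in mouse 4, where these had 2.22 and 1.80 CPM, and mouse 5 had 12.5 CPM of Cxcr5 with both markers within their naïve ranges (0.776 to 2.72 CPM for Cd79a, 0 to 1.06 for Ms4a1). The αβ T cell list of 6 genes summed to 1642 to 1992 and 1576 to 3289 CPM in turn (exact permutation test, p = 0.0476). Of it, Trac, the constant region of the TCR α chain, was called higher, with 127 to 228 CPM in the naïve and 270 to 507 CPM in the pre-exposed group (log2 fold change 1.17, SE 0.26, adjusted p = 0.0222 from edgeR). Cd4 had 8.51 to 38.7 CPM in naïve mice and 108, 82.8, 79.2, 113 and 6.90 CPM in pre-exposed mice 1 to 5 (log2 fold change 1.87, SE 0.53, adjusted p = 0.0513 from edgeR). In mice 1 to 4, Cd4 and Cxcr5 were both above all naïve mice, and mouse 4 had the highest value of each. In mouse 5, Cd4 was under all naïve mice while Cxcr5, with TMM scaling, was above them. The parts of B cells and of αβ T cells in the Cxcr5 result were not tested.

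**Figure D3:**
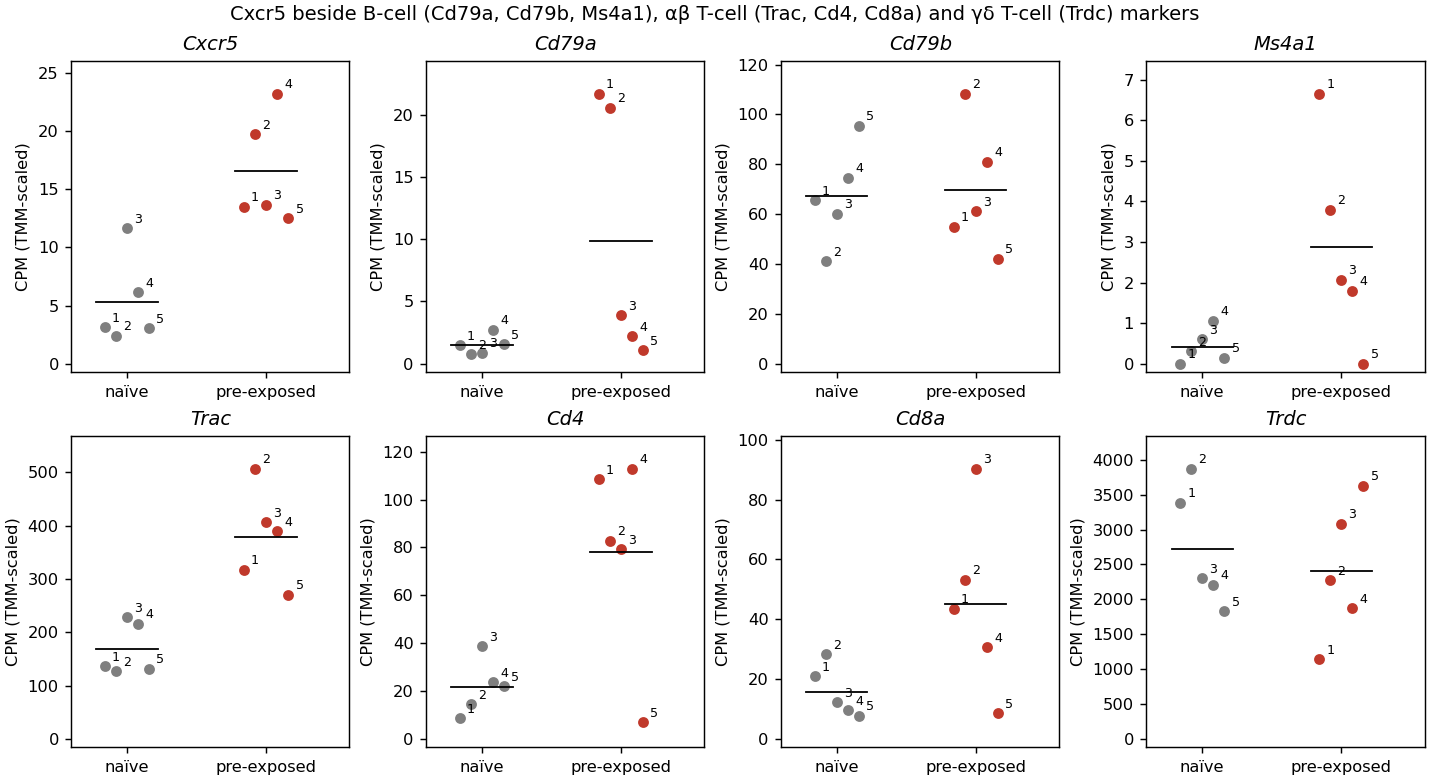
CPM (vertical axes, TMM-scaled) of Cxcr5, of B cell markers Cd79a, Cd79b and Ms4a1, of αβ T cell markers Trac, Cd4 and Cd8a and of the γδ T cell marker Trdc in 5 naïve mice (grey) and 5 pre-exposed mice (red), numbered by mouse, with a bar at the mean. With this scaling Cxcr5 and Trac separate the groups, while pre-exposed mouse 5 lies with the naïve mice, or under them, for Cd79a, Ms4a1 and Cd4.

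Gene models also bear on Cxcr5. It shares 110 exonic bases with Bcl9l, which is transcribed from the opposite strand, and whether strand was used in counting is not given in the sources used here. Bcl9l had 5.80 to 19.8 CPM in naïve mice and 2.34 to 12.7 CPM in pre-exposed mice, a log2 fold change of -0.78 that was not called (adjusted p = 0.321 from edgeR). Of the 75-base words in the Cxcr5 transcripts, 36 (1.11%) also occurred in another gene, all of them in Bcl9l.

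CXCR3 binds the interferon-induced chemokines CXCL9, CXCL10 and CXCL11. Cxcr3 (chrX:101731535-101734147) had 165, 157, 200, 161 and 171 CPM in naïve mice 1 to 5. The values of pre-exposed mice 1 to 5 were 277, 270, 206, 343 and 114 CPM. Mice 1 to 4 were above every naïve mouse and mouse 5 was below every naïve mouse, so that the groups overlapped. The log2 fold change was 0.50 (SE 0.26, adjusted p = 0.259 from edgeR, exact permutation test p = 0.183). Cxcr3 had the smallest relative spread of the 9 in naïve mice, a CV (SD over mean) of 9.88%, against 35.9% in pre-exposed mice. Without pre-exposed mouse 5 edgeR called it higher (log2 fold change 0.65, SE 0.19, adjusted p = 0.0336), in a fit that called 14.8% of all genes, 9.17% higher and 5.61% lower. In mice 2 to 4 it was 0.61 (SE 0.19, adjusted p = 0.0253 from edgeR), in a fit that called 14.9% of genes higher. In mice 1 and 5, which lie on either side of the naïve range, it was 0.24 (SE 0.32, adjusted p = 0.732 from edgeR). Over all libraries it fell from 0.50 to 0.19 (SE 0.23, adjusted p = 0.717 from edgeR) with the trend with gene length removed. With the presence of an index pair in the label as a covariate it was 0.20 (SE 0.32, adjusted p = 0.772 from edgeR).

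CXCR6 binds CXCL16, which is made on liver sinusoidal cells, and holds lymphocytes in the liver. Cxcr6 (chr9:123806477-123811754) had 2807, 2433, 1893, 2875 and 2016 CPM in naïve mice 1 to 5 and 1783, 2245, 2304, 2202 and 1791 CPM in pre-exposed mice 1 to 5. Pre-exposed mice 1 and 5 were just under the naïve range and mice 2 to 4 were within it. edgeR gave a log2 fold change of -0.22 (SE 0.22, adjusted p = 0.569, exact permutation test p = 0.198). It stayed between -0.43 and -0.14 in all 26 alternative fits, and none called it. Cxcr6 had the smallest relative spread of the 9 in pre-exposed mice (CV 12.4%), and its depth of 9857 to 47050 read pairs per library was the greatest. The gene lies within Fyco1 on the other strand without sharing exonic bases, and Fyco1 was called lower (log2 fold change -0.86, adjusted p = 0.0397 from edgeR).

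CXCR4 binds CXCL12 and is used by most leukocytes to reach and stay in bone marrow. Cxcr4 (chr1:128588199-128592299) had 9.10 to 15.0 CPM in naïve mice and 29.3, 16.6, 14.5, 7.98 and 17.1 CPM in pre-exposed mice 1 to 5. Pre-exposed mice 1, 2 and 5 were above all naïve mice, mouse 3 was among them and mouse 4 was below them. From this came a log2 fold change of 0.52 (SE 0.34, adjusted p = 0.356 from edgeR, exact permutation test p = 0.254), and without pre-exposed mouse 1 it was 0.24. It was 1.04 (SE 0.36, adjusted p = 0.186) in mice 1 and 5 and 0.14 (SE 0.32, adjusted p = 0.774) in mice 2 to 4 from edgeR.

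CCR2, the receptor for CCL2, draws monocytes and effector T cells into inflamed tissue. Ccr2 (chr9:124101918-124109140) had 988, 442, 604, 967 and 788 CPM in naïve mice 1 to 5. The values of pre-exposed mice 1 to 5 were 615, 360, 439, 310 and 376 CPM. Mice 2 to 5 were below every naïve mouse and mouse 1 was within the naïve range. The means were 758 ± 235 and 420 ± 118 CPM (SD, n = 5 each), and edgeR gave -0.85 as log2 fold change (SE 0.27, adjusted p = 0.0716). The exact permutation test on this gene alone gave p = 0.0317. DESeq2 called it lower (log2 fold change -0.84, SE 0.29, adjusted p = 0.0406), in a test that called 2.84% of genes lower. In mice 2 to 4 edgeR called it lower as well, at -1.09 (SE 0.27, adjusted p = 0.00794), in a fit that called 14.9% of genes lower. In mice 1 and 5 it had -0.56 (SE 0.37, adjusted p = 0.491 from edgeR). Without pre-exposed mouse 1, the pre-exposed mouse with the highest Ccr2, it was called (log2 fold change -1.03, adjusted p = 0.0243 from edgeR). With the trend with gene length removed the Ccr2 value was -0.65 (SE 0.25, adjusted p = 0.211 from edgeR). With the presence of an index pair in the label as a covariate it was -0.61 (SE 0.34, adjusted p = 0.385 from edgeR). All 26 alternative fits gave a value below 0. The summed monocyte and macrophage markers, from cells that also express Ccr2, did not overlap between the groups and were higher in pre-exposed mice, and their part in the Ccr2 values was not tested.

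CCR1 binds CCL3, CCL5 and other inflammatory chemokines and is abundant on myeloid cells. Ccr1 (chr9:123962126-123968692) was the lowest of the 9 per kilobase and the most variable, with a CV of 84.9% in naïve and 95.3% in pre-exposed mice. It had 2.50, 0, 3.97, 2.72 and 7.95 CPM in naïve mice 1 to 5 and 2.38, 17.6, 8.83, 6.94 and 0 CPM in pre-exposed mice 1 to 5. A count of 0 allows up to 0.155 CPM in naïve mouse 2 and 0.545 CPM in pre-exposed mouse 5, for counting error only. Pre-exposed mice 2 and 3 were above all naïve mice and the other pre-exposed mice were not. The log2 fold change was 1.28 (SE 0.81, adjusted p = 0.349 from edgeR, exact permutation test p = 0.619), and without pre-exposed mouse 2 it was 0.58. Mice 2 to 4 gave 1.94 (SE 0.60, adjusted p = 0.0242 from edgeR), in a fit that called 14.9% of genes higher. Mice 1 and 5 gave -1.03 (SE 1.27, adjusted p = 0.716 from edgeR). The monocyte and macrophage marker sums of pre-exposed mice 1 to 5 were 1647, 2067, 1123, 614 and 521 CPM. Ccr1 was highest in the mouse with the highest sum, and had 2.38 CPM in mouse 1, which had the second highest sum. The part of those cells in the Ccr1 values was not tested.

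The receptors known for skin were at low to moderate levels. CCR8 binds CCL1 and CCL8. Ccr8 (chr9:120092133-120094906) had 9.10, 7.86, 10.1, 16.5 and 6.94 CPM in naïve mice 1 to 5 and 18.8, 21.3, 20.5, 20.0 and 1.64 CPM in pre-exposed mice 1 to 5. Mice 1 to 4 were close together and above every naïve mouse, and mouse 5, with 9 read pairs, was the lowest of all 10. Over all libraries the log2 fold change was 0.74 (SE 0.45, adjusted p = 0.332 from edgeR, exact permutation test p = 0.683). Without pre-exposed mouse 5 edgeR called Ccr8 higher (0.98, SE 0.28, adjusted p = 0.0316), as it did in mice 2 to 4 (1.00, SE 0.29, adjusted p = 0.0185). These fits called 9.17% and 14.9% of genes higher in turn. Mice 1 and 5 gave 0.17 (SE 0.64, adjusted p = 0.910 from edgeR). With the trend with gene length removed the value over all libraries fell from 0.74 to 0.26.

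CCR10 binds CCL27 and CCL28, chemokines of skin and mucosal epithelium. Ccr10 (chr11:101172998-101175443) had 74.2, 17.6, 102, 59.0 and 41.3 CPM in naïve mice 1 to 5 and 36.8, 67.1, 31.1, 29.6 and 12.9 CPM in pre-exposed mice 1 to 5. The groups overlapped widely, with a log2 fold change of -0.72 (SE 0.44, adjusted p = 0.332 from edgeR, exact permutation test p = 0.262). It was -0.42 without naïve mouse 3 and -1.11 without pre-exposed mouse 2. It was -1.17 (SE 0.62, adjusted p = 0.391) in mice 1 and 5 and -0.49 (SE 0.44, adjusted p = 0.417) in mice 2 to 4 from edgeR. The gene lies within Cntnap1, on the opposite strand, without sharing exonic bases.

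CCR4 binds CCL17 and CCL22. Ccr4 (chr9:114490316-114505476) had 3.83 to 13.1 CPM in naïve mice and 4.09 to 11.9 CPM in pre-exposed mice, so that every pre-exposed mouse was within the naïve range. Its log2 fold change was -0.15 (SE 0.42, adjusted p = 0.862 from edgeR, exact permutation test p = 0.944), and its sign was not stable, at 0.21 in mice 1 and 5 and -0.38 in mice 2 to 4. It rests on 44 to 177 read pairs per library.

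**Figure D4:**
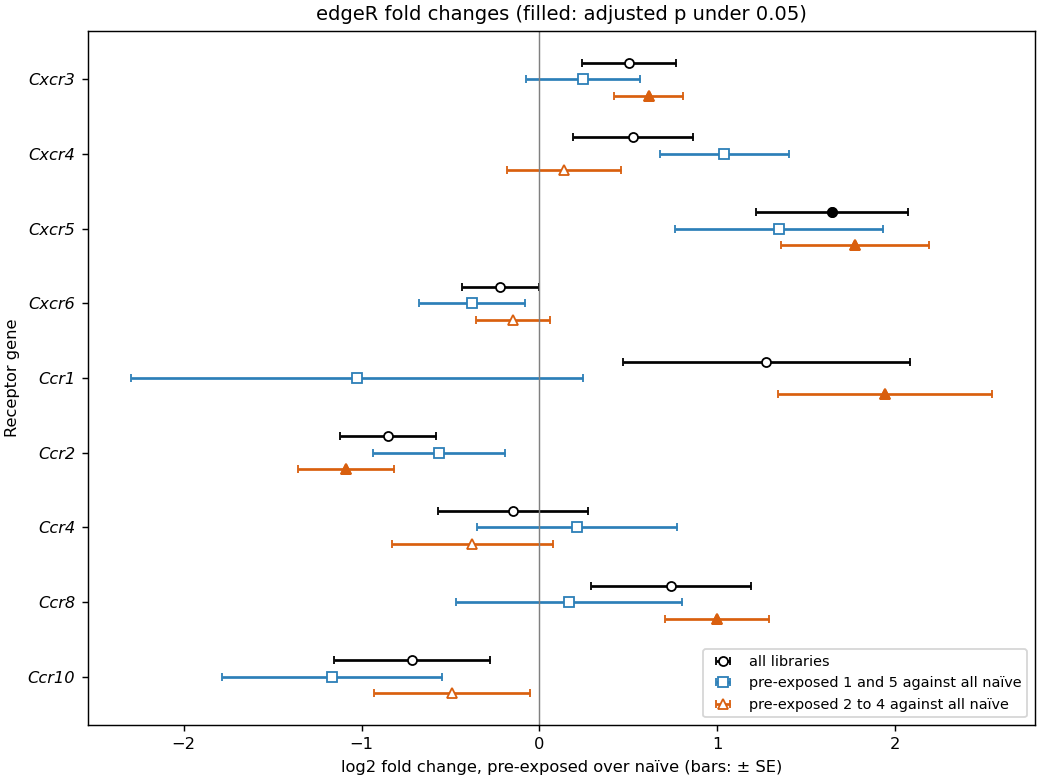
Log2 fold change of pre-exposed over naïve mice with bars of ± SE (horizontal axis) for each receptor from edgeR, for all libraries (black), for pre-exposed mice 1 and 5 (blue) and for mice 2 to 4 (orange), each against all naïve mice. Filled symbols mark an adjusted p under 0.05, reached by Cxcr5 with all libraries and by Cxcr3, Cxcr5, Ccr1, Ccr2 and Ccr8 with mice 2 to 4, where 29.8% of all genes were called.

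The plot of fold changes shows how the receptors differed between the sets of pre-exposed mice. In mice 2 to 4, 5 of the 9 receptors were called, 4 higher and 1 lower, beside a background of 14.9% of genes in each direction. In mice 1 and 5 none was called by edgeR and 0.182% of all genes were called. At an unadjusted p under 0.05 there were 2 of the 9 receptors and 2012 of the 12655 genes. The difference between these sets of mice was not tested. The labels name no library batch, and a possible batch and the mice cannot be told apart in it. Cxcr5, Cxcr3, Cxcr4 and Ccr8 were above 0 and Cxcr6, Ccr2 and Ccr10 below 0 in both sets, whereas Ccr1 and Ccr4 took opposite signs.

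Of the 9 receptor genes, 6 lie on chromosome 9. Cxcr6, Ccr1 and Ccr2 belong to a cluster that also holds Ccr9, Xcr1 and Ccr3, and Ccr8 lies 22235 bases from Cx3cr1. None of Ccr9, Xcr1 and Ccr3 was called by edgeR or had an unadjusted p under 0.05. Ccr9, the receptor of gut-homing cells, 22145 bases from Cxcr6, had a log2 fold change of 0.00 (SE 0.33, adjusted p = 1.00 from edgeR). Ccr3 had 0 to 3.36 and 0 to 8.66 CPM, and Xcr1 11.1 to 35.2 and 13.7 to 26.3 CPM.

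Of the 9 other chemokine receptors, 7 were tested, 1 was called higher and none lower by edgeR, and 6 had a log2 fold change above 0. The 1 called was Cx3cr1, the receptor for CX3CL1 on effector T cells and monocytes. Cx3cr1 had 7.34, 4.19, 10.4, 9.45 and 22.4 CPM in naïve mice 1 to 5 and 94.9, 43.3, 83.1, 21.8 and 11.6 CPM in pre-exposed mice 1 to 5. Pre-exposed mice 1 to 3 were above all naïve mice, and mice 4 and 5 were within the naïve range. The log2 fold change was 2.29 (SE 0.54, adjusted p = 0.0290 from edgeR). Mice 4 and 5 also had the lowest monocyte and macrophage marker sums of the pre-exposed mice, and the part of those cells was not tested. Ccr7, the lymph node homing receptor, had 29.6 to 45.5 and 21.6 to 86.6 CPM (log2 fold change 0.69, SE 0.31, adjusted p = 0.183 from edgeR), with mice 1 to 4 above all naïve mice and mouse 5 below them. Ccr6, known from IL-17-producing γδ T cells, had 136 to 250 and 50.9 to 174 CPM (log2 fold change -0.50, SE 0.30, adjusted p = 0.314 from edgeR).

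Of 14 atypical and related chemoattractant receptors, 8 were tested, 1 was called lower and none higher by edgeR, with a median log2 fold change of -0.33. S1pr1, the sphingosine-1-phosphate receptor with which T cells leave lymphoid organs, fell. It had 461, 310, 464, 585 and 496 CPM in naïve mice 1 to 5 and 291, 239, 237, 219 and 118 CPM in pre-exposed mice 1 to 5. All pre-exposed mice were below all naïve mice, a separation that 2.17% of genes showed in the lower direction. The log2 fold change was -1.07 (SE 0.26, adjusted p = 0.0307 from edgeR), with -1.13 in mice 1 and 5 and -1.05 in mice 2 to 4. S1pr5, a related receptor of effector and NK cells, had 40.8 to 76.9 and 66.3 to 147 CPM (log2 fold change 0.87, SE 0.28, adjusted p = 0.0732 from edgeR). Ccrl2, which binds chemerin without signalling, had 29.8 to 43.6 and 42.7 to 86.6 CPM (0.80, SE 0.25, adjusted p = 0.0655 from edgeR). Ptgdr2, a prostaglandin D2 receptor, had 2.62 to 5.92 and 0.545 to 5.55 CPM.

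Chemokines that bind these receptors were also counted in the same libraries. Of 19 ligands, 10 were tested, 5 were called higher and none lower by edgeR, and the median log2 fold change of the 10 was 2.15. Those called were Ccl3, Ccl5, Ccl6 and Ccl9, which are ligands of CCR1, and Cxcl10, a ligand of CXCR3 (Ccl9 was singled out after its values were seen). Ccl5 had 482 to 862 CPM in naïve mice and 1067 to 3207 CPM in pre-exposed mice, and Ccl3 13.7 to 35.0 and 72.5 to 371 CPM, neither with overlap. Cxcl10 had 3.32 to 13.7 and 11.9 to 45.2 CPM (log2 fold change 1.71, SE 0.45, adjusted p = 0.0393 from edgeR). Ccl6, which is abundant in myeloid cells, had 122, 101, 68.3, 31.9 and 6.00 CPM in pre-exposed mice 1 to 5, against 3.32 to 17.2 in naïve mice. Its values were lower in mice 4 and 5, where the monocyte and macrophage marker sums were also lower. The part of those cells in the Ccl6 values was not tested. Cxcl13, the ligand of CXCR5, had at most 4 counts in any library, and Cxcl12, the ligand of CXCR4, at most 5. Cxcl16, the ligand of CXCR6, had 0 to 18.3 and 1.82 to 35.9 CPM and was not called (0.91, SE 0.72, adjusted p = 0.466 from edgeR). Of the CCR2 ligands, Ccl2 had 0 to 0.289 CPM in naïve mice and 6.94, 7.30, 1.75, 0 and 0 CPM in pre-exposed mice 1 to 5. Ccl2 did not pass the filter, Ccl12 had 0 counts in all 10 libraries and Ccl7 had 1 count in 1 library. Of the CCR8 ligands, Ccl8 had 0 counts in all 10, and Ccl1 had 0 to 1.14 and 0 to 5.48 CPM (log2 fold change 2.58, SE 0.89, adjusted p = 0.0862 from edgeR, and 0.00741 in mice 2 to 4). Of the CCR10 ligands, Ccl28 had 0 counts in all 10, and Ccl27a had 0.514 to 1.28 and 0.716 to 3.27 CPM (0.69, SE 0.53, adjusted p = 0.452 from edgeR). These ligands of CCR2, CCR8 and CCR10 were named after their values were seen.

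Of 35 genes of signalling downstream of chemokine receptors, all 35 were tested, none was called higher and 1 was called lower by edgeR, with a median log2 fold change of -0.04. The gene called was Arrb1, which encodes β-arrestin 1, an adaptor that desensitizes G protein-coupled receptors. Arrb1 had 32.5, 23.3, 33.5, 54.5 and 88.3 CPM in naïve mice and 23.3, 16.1, 9.95, 24.0 and 19.1 CPM in pre-exposed mice, so that the groups overlapped slightly (log2 fold change -1.32, SE 0.37, adjusted p = 0.0464 from edgeR). Rgs2, Rgs1 and Rgs18, members of the family that shortens G protein signals, had log2 fold changes of 0.95 (SE 0.30, adjusted p = 0.0677), 0.89 (SE 0.31, adjusted p = 0.0988) and 1.29 (SE 0.48, adjusted p = 0.114) from edgeR.

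Genes with the pattern over the 10 libraries most like that of a receptor were named for the 3 receptors with the smallest p. Likeness was the root mean square difference of log2 CPM, centred on the mean over the 10 libraries, among 10487 tested genes with a mean of at least 5 CPM. The genes nearest to Cxcr5 were Lsm14b (0.37), Phlda1 (0.49) and Trac (0.50), where the median gene was at 1.23. For Ccr2 they were Zfp367 (0.21), Atp8b4 (0.23) and Slc35d2 (0.23), where the median gene was at 0.75. For Cxcr3 they were Rrp1b (0.16), Nfkbie (0.16) and Tssc4 (0.17), where the median gene was at 0.67. A gene at the same level in all 10 libraries would lie at 1.10 from Cxcr5, 0.57 from Ccr2 and 0.45 from Cxcr3. The genes nearest to Cxcr3 were each lowest of all 10 libraries in pre-exposed mouse 5, as was Cxcr3, to whose pattern they were matched.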

How the data were processed

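EM γδ T cells of 10 mice, 5 per group, were profiled by paired-end RNA-sequencing, and each mouse was a replicate. Reads had been aligned to mm10 by Subread, and featureCounts had counted the read pairs of each Entrez gene. The authors deposited raw counts per gene, not normalized. For the versions of Subread and featureCounts and the use of strand, the sources used here give nothing. The methods of the study name a SMART ultra-low kit, whereas the labels name a TruSeq kit. Groups came from the labels.

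Symbols were matched by Entrez ID to RefSeq annotation of GRCm38.p6 (25275 of 27179 IDs). Of the 13534 genes that passed filterByExpr, 767 without a symbol and 112 immunoglobulin genes were removed, which left 12655. TMM scaled the counts, and genes were tested with the quasi-likelihood test of edgeR 4.0.16 (R 4.3.3) without covariates, with Benjamini-Hochberg adjustment at 0.05. Exact permutation tests, all two-sided, used log2 CPM with a prior count of 2. Overlaps and exon positions came from GENCODE annotation of GRCm38. Other scalings, filters and tests (DESeq2 1.42.0, limma 3.58.1) and left-out libraries were alternatives. So were the label style (whether the description holds an index pair) as a covariate, the replicate number as a block, and the sets of pre-exposed mice. A count of 0 was taken to allow 3 counts at 95% confidence, for counting error only. Scripts were tested on simulated data.

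Named were all 9 receptors, up to 4 genes of each list by smallest p, the 3 genes nearest in pattern to each of the 3 receptors with the smallest p, and neighbouring chemokine receptors within 100 kb. Gene lists also covered markers of γδ and αβ T cells, NK cells, B cells, monocytes and macrophages, conventional and plasmacytoid dendritic cells, neutrophils, mast cells and basophils and erythroid cells. The receptors and lists were chosen with earlier results of these data known.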

Additional observations from a re-analysis of the deposited data

Results flagged for a closer look

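Among the 18 sets of 5 values checked (9 receptors in 2 groups), 1 held a value far from the others, where chance flags about 1 in 20. Ccr8 had 1.64 CPM in pre-exposed mouse 5, and the nearest other pre-exposed mouse had 18.8 CPM. The gap was 0.876 of the range of the group, above Dixon's 95% limit for 5 values.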

How the results depend on the processing

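Of the 26 alternatives, 10 left out 1 library each. edgeR called 796 genes and 1 receptor with all libraries. These counts were 1350 and 2 with DESeq2, 2 and 0 with voom and TREAT at 1.5-fold, 96 and 0 with voom without a fold threshold, and 287 and 0 with quality weights and TREAT. They were 358 and 0 with the older dispersion method, 40 and 0 with the label style as a covariate, and 214 and 0 with the length trend removed. Mice 1 and 5 gave 23 and 0, and mice 2 to 4 gave 3776 and 5. Library totals without scaling left 0 receptors called. With 1 library left out, 53 to 1870 genes and 0 to 3 receptors were called. The cause of these changes was not tested. Same-numbered mice did not deviate together (correlations of -0.261 to 0.053), which does not settle whether the numbers pair the mice. With the replicate number as a block 54 genes and 0 receptors were called. Cxcr5 had an adjusted p of 0.0539 with library totals, 0.0564 with the length trend removed, 0.0904 with the block and 0.239 with the label style as a covariate (edgeR), and 0.345 with voom and TREAT. Ccr1 turned to -1.04 with the label style as a covariate and -1.03 in mice 1 and 5. Ccr4 turned to 0.17 with that covariate and 0.21 in mice 1 and 5, and ranged from -0.36 to 0.026 with 1 library left out (above 0 without naïve mouse 4, 0.010, or pre-exposed mouse 2, 0.026). The other 7 receptors kept their direction in all 26. Ccr1, Cxcr5, Ccr4 and Ccr8 had libraries with under 50 read pairs, and the part of depth in their errors was not tested.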

Other observations

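The remaining marker lists were as follows. The summed CPM of conventional dendritic cell markers was 87.6 to 119 in the naïve and 86.3 to 656 in the pre-exposed group (exact permutation test, p = 0.0476), with 6 of 9 genes called higher by edgeR. That of plasmacytoid dendritic cell markers was 123 to 175 and 168 to 525 (exact permutation test, p = 0.0159), with 4 of 7 genes called. That of erythroid markers was 80.1 to 462 and 333 to 2040 (exact permutation test, p = 0.0159), with 4 of 6 genes called. Sums of neutrophil (0.310 to 22.2 and 1.09 to 232, p = 0.214), mast cell and basophil (22.4 to 64.0 and 16.4 to 79.8, p = 0.468) and NK cell markers (888 to 2124 and 1278 to 6292, p = 0.143) overlapped between the groups, with p from the same exact test. Of the 7, 6 and 12 genes in these lists, 3, 4 and 12 were tested. Of those tested, edgeR called 1, 1 and 3 higher and none lower.

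Within single mice, the ratio of Cxcr3 to Ccr2 in CPM was 0.167 to 0.355 in the naïve and 0.302 to 1.11 in the pre-exposed group, with overlap.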
